A study of Mus musculus with 21 samples.

Results

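The interferon-stimulated and antigen presentation genes are a list of 40 mouse genes, found by their symbols in a QuantSeq table of 55421 gene identifiers, where each had 1 row. A mean of at least 1 TPM over all 15 libraries, the level taken as detected, was reached by 32 of the 40, and 11554 genes of the whole table reached it. The list was sorted by role into RNA and DNA sensors (5 genes), direct antiviral effectors (9), the ISG15 system with ubiquitin ligases and ADP-ribosyltransferases (7), interferon-inducible GTPases (6), the immunoproteasome and class I antigen presentation (6), and a transcription factor with other interferon-stimulated genes (7).

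Interferons are cytokines that act through JAK kinases and STAT proteins. Type I interferon leads to the binding of interferon-stimulated response elements (ISREs), whereas interferon gamma leads to the binding of gamma-activated sites (GASs). The genes they switch on make the sensors and effectors that restrict viruses and the machinery that cuts proteins into peptides, carries these into the endoplasmic reticulum and presents them on class I molecules. Stem and progenitor cells are known to hold some of these genes at a basal level without infection.

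The cells were *Ebf1*-deficient lymphoid progenitors (LPs) of strain C57BL6/J, a cultured line that lacks the B-lineage factor Ebf1 and can still enter the T lineage. All 5 conditions shared the *Ebf1* deficiency, retroviral Cas9-GFP and culture on mitomycin-treated OP9 stroma with SCF, IL-7 and Flt3L, without Notch stimulation. They differed in the retroviral sgRNAs, with an hNGFR marker, directed at luciferase (sgControl), *Lmo2* (sgLmo2), *Zbtb1* (sgZbtb1), *Cbfa2t2* (sgCbfa2t2) or *Cbfa2t3* (sgCbfa2t3). The methods list 2 sgRNAs for luciferase as for each gene, and state that the 2 made for a gene were pooled. GFP+hNGFR+ cells were sorted 5 days after sgRNA introduction, with 3 replicates per condition, and no interferon was added according to the labels or methods. Each library was made from a pool of sorted cells, and the share of edited alleles was not measured here.

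QuantSeq reads 1 tag near the 3′ end of each mRNA, so the counts do not grow with transcript length and levels of different genes can be set side by side. The deposited values, named TPM, are reads scaled to the same total in every library, and 1705416 to 2095448 reads were recovered per library. A floor of 3 reads was worth 1.43 to 1.76 TPM and covers counting error only. Target mRNA was not depleted, and the labels could not be checked by it. The study examined the targeted proteins by immunoblotting, which is not analysed here. It was 61.7 ± 5.51 TPM (SD, n = 3) in sgControl and 106 ± 9.91 TPM in sgZbtb1 for *Zbtb1*, 190.2 ± 18.7 and 349.8 ± 12.9 TPM for *Cbfa2t3*, 11.8 ± 0.698 and 21.9 ± 4.85 TPM for *Cbfa2t2*, and 18.4 ± 4.17 and 16.3 ± 7.99 TPM, which overlapped, for *Lmo2*. A 3′ tag does not read the edited bases, so these values check no edit, and each condition below stands for the libraries labelled with that sgRNA. All 8 lymphoid progenitor markers were detected, while of 9 OP9 stromal markers *Pdgfrb* alone had a mean of at least 1 TPM, *Col3a1*, *Dcn* and *Lum* were at 0 and the list summed to 2.95 to 12.4 TPM. Plasmacytoid dendritic cell markers (4 of 5 detected, mostly *Ccr9*, *Cox6a2* and *Tcf4*; *Klk1* at 0) summed to 905 to 949 TPM in sgZbtb1 and 1508 to 1693 TPM in sgControl, and macrophage and neutrophil markers (4 of 8 detected, mostly *Adgre1*; *Elane* and *S100a8* at 0) to 52.0 to 78.4 and 109 to 161 TPM.

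The promoters of the list carry the sequence that interferon signalling reads, and stretches of 7 of them are shown because they span its range of expression, from *Oas1a* at 0 to *B2m* at the top. They are RefSeq sequences on GRCm38.p6, written 5′ to 3′ on the strand of the gene and wholly upstream of the start site and of every annotated exon. Capitals mark an ISRE core, searched as GAAA, any 2 bases and GAAA on both strands, or a GAS, searched as TTCNNNGAA, and overlapping matches run together. The positions are chr19:34640764-34640823 (+) for *Ifit1*, chr4:156200859-156200918 (-) for *Isg15*, chr12:26456533-26456592 (-) for *Rsad2*, chr5:120907526-120907575 (-) for *Oas1a*, chr3:142530216-142530305 (+) for *Gbp7*, chr8:71537563-71537622 (-) for *Bst2* and chr2:122147527-122147586 (+) for *B2m*.
Oas1a: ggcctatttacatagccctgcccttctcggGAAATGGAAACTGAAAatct
Ifit1: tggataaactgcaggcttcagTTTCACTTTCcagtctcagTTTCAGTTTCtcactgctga
Rsad2: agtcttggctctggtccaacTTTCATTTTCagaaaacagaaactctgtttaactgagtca
Isg15: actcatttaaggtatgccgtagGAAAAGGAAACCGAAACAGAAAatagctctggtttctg
Gbp7: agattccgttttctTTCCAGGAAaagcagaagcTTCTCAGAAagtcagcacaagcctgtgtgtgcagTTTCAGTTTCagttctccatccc
Bst2: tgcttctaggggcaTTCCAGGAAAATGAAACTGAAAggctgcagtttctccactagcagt
B2m: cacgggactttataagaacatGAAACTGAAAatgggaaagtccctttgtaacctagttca

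Matches to the ISRE core lay in genes at both ends of the expression range. *Isg15* held 3 overlapping cores from 78 bases before its start, *Oas1a* 2 from 20 bases before it and *Ifit1* 2 from 104 bases before it. *Bst2* held 2 cores from 130 bases before its start, joined to a GAS, and *B2m* held 1 core from 139 bases before its start. RefSeq promoters, 300 bases that span the start and lie mostly before it, were at hand for 32 of the 40 genes, and not for *Ifi27*, *Mx1*, *Parp14*, *Parp9*, *Rtp4*, *Tap2*, *Usp18* and *Zbp1*. Of these 32, 17 (53.1%) held an ISRE core, compared with 1079 of 27025 genes with a promoter (3.99%) and 296 of 8486 genes detected here (3.49%). A GAS was found in 9 of the 32 (28.1%), against 9.55% of all genes. Among the 6 undetected genes with a promoter, *Ifit1*, *Ifit3*, *Oas1a*, *Rsad2* and *Gbp2* had the core and *Oasl2* had none. Among the 18 genes with a mean of at least 10 TPM, 6 had it, namely *B2m*, *Bst2*, *Gbp7*, *Stat2*, *Eif2ak2* and *Ddx58*. No core was found in the promoters of *Psmb8*, *Psmb9*, *Psmb10* and *Tap1*, although *Psmb8* had a GAS. A match is a description of the letters, and the list was drawn from genes known to respond to interferon.

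**Figure D1:**
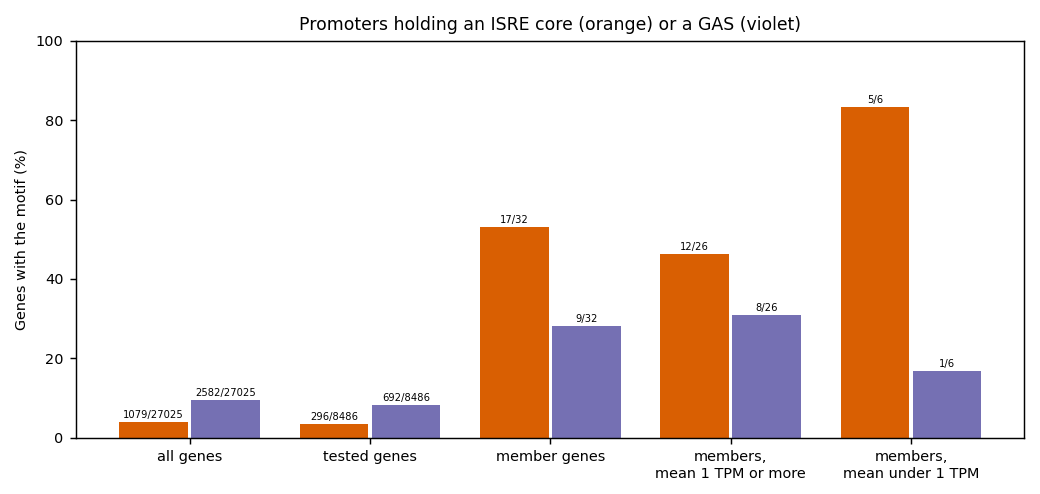
Share of genes (%, y axis) whose RefSeq promoter of 300 bases holds an ISRE core (orange) or a GAS (violet), for all genes, genes with a mean of at least 1 TPM, the listed genes, and the listed genes above and below that mean (x axis); counts stand over the bars. The core is in 17 of 32 listed genes and in 3.99% of all genes, and the undetected listed genes hold it in 5 of 6 cases.

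In the QuantSeq libraries, the list divided by role. The 6 immunoproteasome and class I genes were all detected and made up most of its tags, 65227 of 86574 reads, while only 3 of the 9 direct antiviral effectors were detected. The 40 genes together summed to between 2793 and 3405 TPM per library, and the 8 undetected ones to at most 6.39 TPM. A mean of at least 10 TPM was reached by 21 genes, and 24 had more than 3 reads in every library.

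*B2m*, the light chain of class I molecules, was the most abundant at a mean of 1410.4 TPM. *Psmb8*, a catalytic subunit that replaces its constitutive counterpart in the immunoproteasome, followed at 324 TPM, with a range of 259.7 to 392 TPM over the 15 libraries. *Tap2*, a subunit of the peptide transporter, had a mean of 273 TPM and ranged from 187 to 359 TPM. The partner subunit *Tap1* ranged from 102 to 136 TPM, and *Psmb9* and *Psmb10*, the other catalytic subunits of the immunoproteasome, from 96.1 to 168 and from 51.1 to 83.4 TPM. No library therefore lacked any component of this set. *Psmb9*, *Tap1*, *Psmb8* and *Tap2* are neighbours on chromosome 17, within chr17:34181987-34216321 on GRCm38, and the RefSeq starts of *Tap1* and *Psmb9* lie 225 bases apart on opposite strands. Their annotated genes overlap there, and the counting was not stated to use strand.

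The direct antiviral effectors were almost silent apart from *Bst2* and *Samd9l*. *Bst2* (tetherin), which holds budding virions at the cell surface, had a mean of 177 TPM, and *Samd9l*, a restriction factor of poxviruses, 13.7 TPM. *Ifit2* had a mean of 2.70 TPM. *Oas1a* had 0 reads in all 15 libraries, which allows up to 1.43 to 1.76 TPM in a library. *Ifit1* and *Ifit3*, RNA-binding proteins that block viral translation, had 2 reads each over all libraries. *Mx1* had 5 reads, *Oasl2* 14 and *Rsad2* (viperin) 17. *Mx1* is annotated as a polymorphic pseudogene. Thus 6 of the 9 effectors were near or under the floor in all 5 conditions.

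In the ISG15 system, 6 of 7 genes were detected, with *Isg15* itself at the limit. *Isg15*, the ubiquitin-like modifier, was at 0 in 6 of 15 libraries and had a mean of 1.00 TPM, and *Usp18*, its deconjugating enzyme, had 13 reads in all. *Trim30a* had a mean of 1.87 TPM. In contrast, *Trim25*, a ubiquitin ligase that acts with RIG-I, had 93.5 TPM, *Dtx3l* and its partner *Parp9* had 44.0 and 36.4 TPM, and *Parp14* had 33.2 TPM. *Dtx3l* and *Parp9* overlap on opposite strands, so that reads of the pair may be shared.

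Among the sensors, *Eif2ak2* (PKR), the double-stranded RNA-activated kinase, had a mean of 30.1 TPM and *Adar*, an RNA-editing enzyme, 25.6 TPM. *Ddx58* (RIG-I) had 18.8 TPM, *Ifih1* (MDA5) 8.93 TPM and *Zbp1*, a sensor of left-handed nucleic acids, 1.48 TPM. The GTPases ranged from *Ifi47* at 80.5 TPM and *Gbp7* at 64.3 TPM through *Igtp* (7.98) and *Irgm1* (7.49) to *Gbp3* (1.26) and the undetected *Gbp2* (0.51 TPM). These families hold near-identical copies, so the split of reads among them is uncertain. *Lgals3bp*, a secreted glycoprotein, had 36.1 TPM, *Stat2* 26.2, *Sp100*, a component of PML nuclear bodies, 22.7, and *Ifi35* 14.8 TPM, and *Rtp4*, *Ifi27* and *Xaf1* had 2.71, 2.30 and 1.22 TPM.

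**Figure D2:**
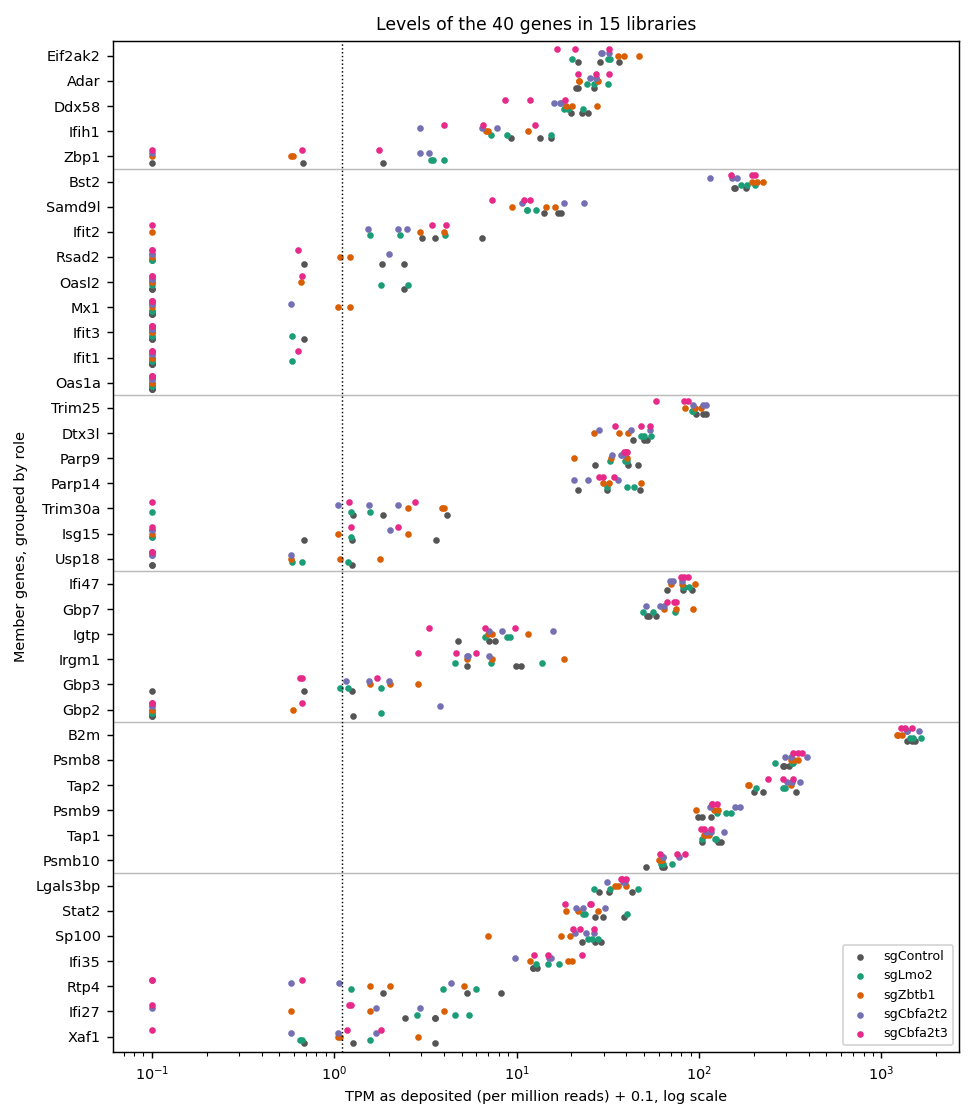
Level of each of the 40 genes (y axis, grouped by role and ordered by mean) as TPM + 0.1 on a log scale (x axis); each point is 1 library, colours mark the sgRNA, and the dotted line stands at 1 TPM. The immunoproteasome and class I genes lie between 51.1 TPM and 1647 TPM in every library, while *Oas1a*, *Ifit1* and *Ifit3* have at most 1 read in any library.

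The genes that send and receive the signal were examined from a list of pathway genes, of which 75 were detected and tested. Of 11 ligand genes, 10 interferon genes and *Il6*, every one was at 0 in all 15 libraries. Chains of the type I and gamma receptors were present, with means of 20.0 TPM for *Ifnar1*, 87.5 for *Ifnar2*, 92.0 for *Ifngr1* and 15.6 TPM for *Ifngr2*, as were *Irf9* at 33.6 TPM and *Irf1* at 63.9 TPM. *Irf7*, which amplifies type I interferon production, had a mean of 6.32 TPM. *Ifnlr1*, the specific chain of the lambda receptor, was at 0 in all 15 libraries. Receptor chains for type I interferon and interferon gamma were thus detected, and reads of the 11 ligand genes examined were not.

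To determine whether the conditions affect the list, each sgRNA was compared with sgControl by limma on log2(TPM + 1) over the 11554 detected genes, with Benjamini-Hochberg adjustment over all of them. A moderated F test asked for any difference among the 5 conditions. The 4 comparisons share the sgControl libraries. The replicates of the culture were described as biologically independent.

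In the F test, 2 of the 32 tested genes passed an adjusted p under 0.05, compared with 4.54% of all genes, and these were *Bst2* and *B2m*. At an unadjusted p under 0.05 they numbered 12 (37.5%), compared with 16.7% of all genes. *Bst2* measured 158, 181 and 155 TPM in sgControl, 183, 203 and 170.4 in sgLmo2, 224, 195 and 207 in sgZbtb1, 152, 115 and 161 in sgCbfa2t2 and 196, 149.6 and 203 TPM in sgCbfa2t3. Means were highest in sgZbtb1 and lowest in sgCbfa2t2, and these 2 conditions did not overlap, while the others lay between (adjusted p = 0.0123, limma F test). Its call held with edgeR and DESeq2 on the recovered reads, and was lost when sgZbtb1 replicate 1 or sgCbfa2t2 replicate 2 was left out and when no filter on low values was used. *B2m* measured 1373, 1535 and 1472 TPM in sgControl, 1488, 1647 and 1439 in sgLmo2, 1225, 1289 and 1226 in sgZbtb1, 1385, 1374 and 1615 in sgCbfa2t2 and 1348, 1276 and 1464 TPM in sgCbfa2t3. Its lowest values were those of sgZbtb1, which overlapped with sgCbfa2t3 alone (adjusted p = 0.0446). This call did not hold with edgeR, DESeq2, a pseudocount of 0.1, median-of-ratios size factors or no filter, or when 1 of these libraries was left out: sgControl replicates 2 and 3, sgLmo2 replicate 2, any sgZbtb1 replicate, and sgCbfa2t3 replicates 1 and 2.

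In sgZbtb1, the class I heavy chain genes *H2-K1* and *H2-D1* fell, as did *Sp100*, and for most of the list no difference was detected. *Sp100* was the single gene of the list that passed, 1 of 32 (3.12%) against 4.79% of all genes. It measured 22.6, 28.9 and 27.0 TPM in sgControl and 17.3, 19.6 and 6.87 TPM in sgZbtb1, so that the groups did not overlap and replicate 3 was far below the others. It fell by 0.91 ± 0.28 on the log2 scale (SE; adjusted p = 0.0377; exact permutation p = 0.1, the smallest 3 against 3 libraries can give). Without sgZbtb1 replicate 3 the difference was -0.48 (adjusted p = 0.436), and edgeR and DESeq2 gave adjusted p values of 0.0710 and 0.0834, and it also missed the threshold without sgControl replicate 2 (0.142) or 3 (0.115), with the 6 libraries of the 2 conditions alone (0.0524) and with no filter (0.108).

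*B2m* was lower in all 3 sgZbtb1 libraries than in any sgControl library, with means of 1247 ± 36.9 and 1460 ± 81.7 TPM (SD, n = 3), a log2 difference of -0.23 (95% interval -0.37 to -0.08, adjusted p = 0.0535). It passed with a replicate block, with a mean of at least 10 TPM and with the 6 libraries of the 2 conditions alone. The same held against the 9 libraries of the other sgRNAs and without sgControl replicate 1, and in no other alternative. The heavy chains, which pair with *B2m*, are in the pathway list and have near-identical copies in the genome, so their split of reads is uncertain. *H2-K1* measured 242, 246 and 212 TPM in sgControl and 126, 128 and 139 TPM in sgZbtb1, and fell by 0.82 ± 0.11 on the log2 scale (adjusted p = 4.12e-08). *H2-D1* measured 289.8, 337 and 269 TPM in sgControl and 208, 196 and 191 TPM in sgZbtb1, and fell by 0.58 ± 0.10 (adjusted p = 4.51e-05). The groups of both genes were far apart, and both calls held under every alternative that was run. *Nlrc5*, the transactivator of class I genes, had 9.10 ± 6.16 TPM in sgControl and 2.98 ± 1.17 TPM in sgZbtb1 (log2 difference -1.23, adjusted p = 0.0824). It did not pass, although the libraries did not overlap.

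The peptide-supplying genes of the list were measured in the same libraries. *Psmb8* had 298 ± 11.7 TPM in sgControl and 334 ± 15.8 TPM in sgZbtb1, *Psmb9* 106 ± 9.32 and 114 ± 16.3, *Psmb10* 59.4 ± 7.23 and 61.5 ± 1.30, *Tap1* 121 ± 15.3 and 109.7 ± 3.68, and *Tap2* 254 ± 74.4 and 232 ± 77.0 TPM. None of these 5 passed the test, and all but *Psmb8* overlapped with sgControl, but the 95% intervals of *Tap1* (-0.38 to 0.13), *Tap2* (-0.42 to 0.14) and *Psmb10* (-0.26 to 0.37) include the difference of *B2m*. Of 12 tested class I presentation genes in the pathway list, 2 passed, *H2-K1* and *H2-D1*, beside 4.79% of all genes, and 4 had an unadjusted p under 0.05, all lower, beside 17.6% of all genes, the others being *Nlrc5* and *Tapbp*. *Tapbp*, the chaperone that joins class I molecules to the transporter, had a mean of 121 TPM against 152 TPM in sgControl (-0.33, 95% interval -0.56 to -0.09, adjusted p = 0.0905). *Psmb7*, the constitutive proteasome subunit that *Psmb10* replaces, rose from 115 ± 9.98 to 165 ± 25.5 TPM (log2 fold change 0.50 ± 0.13, adjusted p = 0.00782), a call that was lost without sgZbtb1 replicate 3 (adjusted p = 0.124) or sgControl replicate 1 (0.0537). *H2-K1*, *H2-D1* and *Psmb7* were the 3 genes of the 75 in the pathway list that passed in sgZbtb1, beside 4.79% of all genes. The pathway list was chosen with earlier results of these data known. A share of it, or of its class I genes, beside that of all genes is therefore no test.

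Several genes of the list lay above sgControl in sgZbtb1 without passing. *Bst2* was higher in all 3 libraries (log2 difference 0.34, 95% interval 0.10 to 0.58, adjusted p = 0.0807), as was *Gbp7*, at 92.2, 74.6 and 63.8 TPM against 58.1, 53.2 and 51.6 TPM (0.48, 0.15 to 0.81, adjusted p = 0.0753). *Eif2ak2* had the largest difference upwards among genes of at least 10 TPM, with 46.9, 38.7 and 35.8 TPM against 21.5, 36.5 and 28.7 TPM, which overlapped (0.50, adjusted p = 0.265). *Dtx3l* was lower, at 34.5 ± 7.24 against 48.3 ± 4.34 TPM (-0.49, adjusted p = 0.163), and *Ifih1* was at 8.35 ± 2.71 against 12.6 ± 3.06 TPM (-0.55, adjusted p = 0.529). In all, 6 of 32 genes (18.8%) had an unadjusted p under 0.05, 3 higher and 3 lower, beside the same 17.6% of all genes, and the median log2 difference of the 32 was -0.02, beside -0.03 for all genes. By the thresholds of the study, applied here to the limma values and not to the test the study used (an average over 10 TPM in at least 1 of the groups, a log2 difference over 1 in size and an unadjusted p under 0.05) 0 of 32 passed, beside 1.66% of all genes. The plasmacytoid dendritic cell and macrophage marker sums given above were also lower in sgZbtb1, mostly through *Ccr9* (359 against 923 TPM) and *Adgre1* (48.0 against 110.4 TPM), while *Itgam* was at 9.68 against 9.31 TPM. T cell markers (1 of 5 detected, *Trac*; *Cd8a* at 0) summed to 10.5 to 20.7 TPM against 26.1 to 29.5 TPM in sgControl, and mature B cell markers (1 of 4 detected, *Pax5*; *Ms4a1* and *Cd79a* at 0) to 0 to 1.47 against 5.21 to 8.79 TPM. The 8 lymphoid progenitor markers summed to 1276 to 1418 TPM against 1460.1 to 1498 TPM. The part of these cell types in the differences was not tested. In bulk libraries fewer cells of a type and less RNA per cell cannot be told apart.

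**Figure D3:**
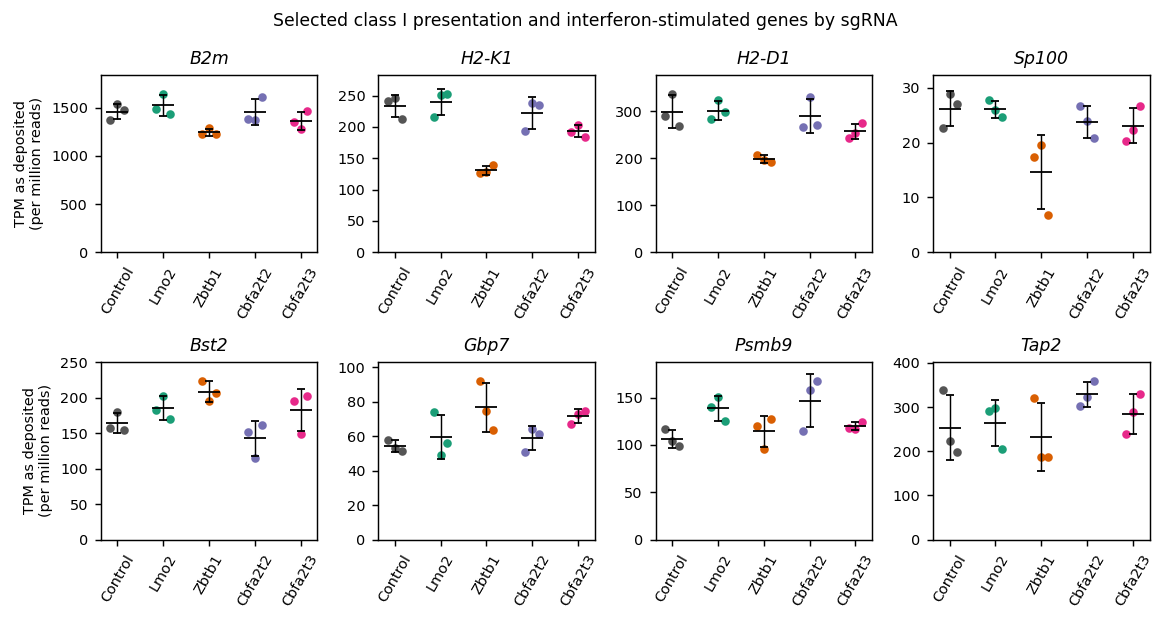
TPM as deposited (y axis, from 0) in each library of the 5 sgRNAs (x axis) for 8 genes; points are libraries, and bars give the mean and SD of 3 replicates. *H2-K1* and *H2-D1* of the 3 sgZbtb1 libraries lie below all 12 others, *Bst2* is highest in sgZbtb1 and lowest in sgCbfa2t2, and the *Tap2* libraries of sgControl span 199 to 339 TPM.

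In sgCbfa2t3, 0 of 32 genes passed the limma test, against 0.537% of all genes, and edgeR and DESeq2 also gave 0. At an unadjusted p under 0.05 there were 6 (18.8%), 2 higher and 4 lower, against 10.6%. By the thresholds of the study there were 0, against 0.658%. *Trim25* measured 105, 96.7 and 108 TPM in sgControl and 87.4, 58.2 and 83.1 TPM in sgCbfa2t3, with no overlap (log2 difference -0.45, 95% interval -0.73 to -0.17, adjusted p = 0.148). *Ddx58*, the sensor on which *Trim25* acts, measured 24.4, 19.7 and 22.9 TPM against 11.8, 8.56 and 18.3 TPM, again with no overlap (-0.80, -1.37 to -0.23, adjusted p = 0.246). *Ifih1*, the related sensor, had 7.62 ± 4.46 against 12.6 ± 3.06 TPM (-0.76, adjusted p = 0.520), and overlapped.

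*Rtp4*, a chaperone of receptors, had the lowest values in sgCbfa2t3, with 0, 0.570 and 0 TPM against 1.74, 8.10 and 5.28 TPM in sgControl (adjusted p = 0.0624), so that all 3 sgCbfa2t3 libraries were under the floor of 3 reads. It passed with a replicate block, a pseudocount of 0.1 and without sgControl replicate 1, and in no other alternative. *Ifi27*, a mitochondrial interferon-stimulated protein, was also lower in all libraries, at 0.749 ± 0.649 against 3.10 ± 0.654 TPM (adjusted p = 0.404). *Gbp7* (67.0, 73.1 and 74.8 TPM) and *Psmb8* (369, 351 and 328 TPM) were higher than sgControl in all libraries, with log2 differences of 0.39 (0.06 to 0.72, adjusted p = 0.363) and 0.23 (0.03 to 0.42, adjusted p = 0.379). *Ifi35* had 16.6 ± 5.42 against 12.4 ± 0.419 TPM (0.35, adjusted p = 0.752). The median log2 difference of the 32 genes was -0.11, beside -0.01 for all genes, and it was 0.06 when the list was limited to genes with a mean of at least 10 TPM. Plasmacytoid dendritic cell markers summed to 1164 to 1228 TPM in sgCbfa2t3, below the 1508 to 1693 TPM of sgControl. Among them *Ccr9* was at 571 against 923 TPM and *Tcf4* at 158 against 204 TPM. *Siglech*, at 2.35 against 1.94 TPM, and *Cox6a2*, at 463 against 491 TPM, overlapped with sgControl. Mature B cell markers summed to 1.07 to 2.85 TPM, below 5.21 to 8.79 TPM, and macrophage and neutrophil and T cell markers overlapped with sgControl. The part of these markers was not tested. Of the pathway list, *Irf1*, an activator of class I and immunoproteasome genes, was the 1 gene of 75 that passed, beside 0.537% of all genes, at 70.3, 68.9 and 76.8 TPM in sgControl and 39.1, 58.8 and 37.7 TPM in sgCbfa2t3. It fell by 0.69 ± 0.17 (adjusted p = 0.0277), and this did not hold with edgeR (adjusted p = 0.0550) or when any of 5 single libraries was left out, all 3 of sgControl and sgCbfa2t3 replicates 1 and 3 (0.0690 to 0.217).

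In sgCbfa2t2, 0 of 32 genes passed with limma, edgeR and DESeq2, against 0.147% of all genes with limma, and 3 (9.38%) had an unadjusted p under 0.05, against 9.56%. *Psmb9* measured 117, 104 and 98.5 TPM in sgControl and 115, 158 and 168 TPM in sgCbfa2t2, where replicate 1 lay within the controls (log2 difference 0.44, 95% interval 0.18 to 0.71, adjusted p = 0.179); without that library it was 0.61 (adjusted p = 0.0348). *Tap2* measured 339, 223 and 199 TPM against 303, 324 and 359 TPM, which overlapped because sgControl replicate 1 was high (0.41, 0.13 to 0.68, adjusted p = 0.295), and *Tap2* passed when that library was left out. *Ifih1* measured 13.4, 9.26 and 15.2 TPM against 6.39, 2.86 and 7.73 TPM, all lower (-1.09, -1.91 to -0.26, adjusted p = 0.350). *Ifih1* was the single gene of the list that met the thresholds of the study, against 0.502% of all genes. *Ddx58* had 16.8 ± 0.769 against 22.3 ± 2.40 TPM (-0.38, adjusted p = 0.725) and *Igtp* 10.3 ± 4.77 against 6.39 ± 1.51 TPM (0.55, adjusted p = 0.724). Plasmacytoid dendritic cell markers summed to 1115 to 1396 TPM and T cell markers to 12.9 to 21.7 TPM, both below sgControl. Among the former, *Ccr9* was at 651 against 923 TPM and *Tcf4* at 160 against 204 TPM. *Siglech*, at 1.62 against 1.94 TPM, and *Cox6a2*, at 473 against 491 TPM, overlapped with sgControl. The macrophage and neutrophil and mature B cell sums overlapped with it as well, and the part of these markers was not tested. The median was -0.02, beside 0.00 for all genes, and 0 of the 75 pathway genes passed with limma, 6 of them having an unadjusted p under 0.05.

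In sgLmo2, 0 of 32 genes passed with limma, edgeR and DESeq2, against 0.0173% of all genes, 2 (6.25%) had an unadjusted p under 0.05, against 5.65%, and 0 met the thresholds of the study, against 0.234%. *Psmb9* measured 140.2, 151 and 125 TPM, above the 98.5 to 117 TPM of sgControl (log2 difference 0.38, 0.12 to 0.64, adjusted p = 0.765). *Zbp1* had 3.39, 3.91 and 3.29 TPM against 0, 0.578 and 1.76 TPM (adjusted p = 0.849), few reads in each. It reached the mean of 1 TPM only through the sgLmo2 libraries, so its test here gives no support for a difference. *Zbp1* was 1 of the 2 genes with an unadjusted p under 0.05. *Samd9l* had 11.7 ± 0.765 against 16.1 ± 1.77 TPM (-0.42, adjusted p = 0.927), *Ifih1* 10.4 ± 4.30 against 12.6 ± 3.06 (-0.30, adjusted p = 0.966) and *Parp14* 38.3 ± 6.54 against 33.3 ± 13.1 TPM (0.25, adjusted p = 0.949). The difference of *Parp14* changed direction when sgControl replicate 1 was left out. The median was 0.02, beside 0.01 for all genes. The 1 pathway gene of 75 that passed, beside 0.0173% of all genes, was *Irf8*, a regulator of myeloid and dendritic cell genes, which fell from 111, 120.4 and 116 TPM to 50.9, 58.2 and 61.9 TPM, by 1.01 ± 0.13 on the log2 scale (adjusted p = 1.20e-06), under every alternative that was run. The macrophage and neutrophil sum was 166 to 219.5 TPM in sgLmo2, above the 109 to 161 TPM of sgControl, through *Adgre1* (173 against 110.4 TPM), while the other detected markers were lower, with *Cd68* at 4.86 against 10.7, *Itgam* at 6.16 against 9.31 and *Mpo* at 0 to 2.83 against 5.21 to 5.81 TPM. The plasmacytoid dendritic cell sum overlapped, but *Tcf4* was lower in every library, at 126, 160.4 and 148 against 190.5, 212 and 209 TPM, and *Siglech* was at 0.371 against 1.94 TPM. The T cell and mature B cell sums overlapped, and the part of these markers was not tested. In sgZbtb1 *Irf8* was at 137, 164 and 158 TPM (0.40, adjusted p = 0.0585). In the F test 7 of the 75 pathway genes passed, beside 4.54% of all genes, namely *Irf1*, *Irf8*, *H2-K1*, *H2-D1*, *Psmb7* and the interferon-induced *Ifitm1* (adjusted p = 5.08e-05) and *Ifi203* (0.00643).

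**Figure D4:**
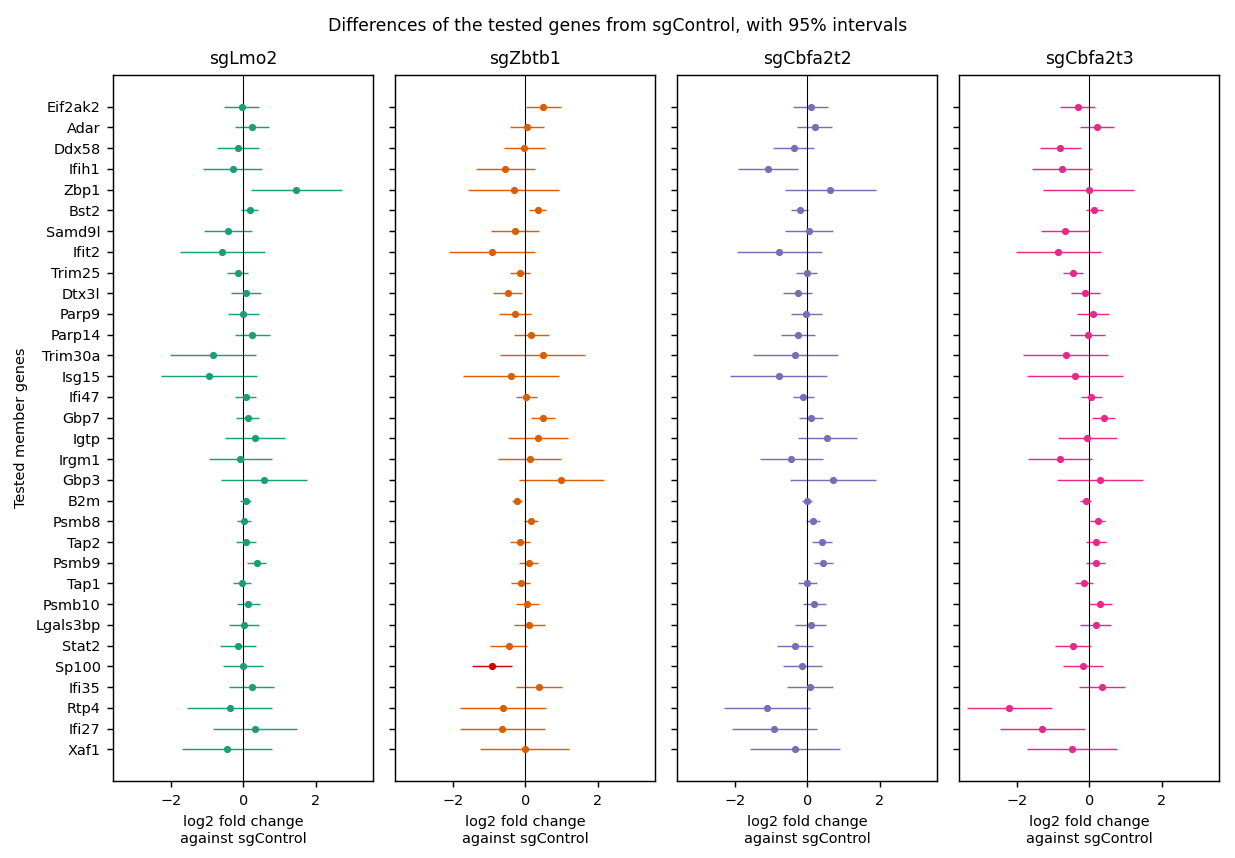
Log2 fold change against sgControl on the log2(TPM + 1) scale (x axis) with its 95% interval for each of the 32 tested genes (y axis), 1 panel per sgRNA; red marks an adjusted p under 0.05. *Sp100* in sgZbtb1 is the single red point, and the widest intervals belong to genes of few reads such as *Rtp4*, *Zbp1*, *Isg15* and *Gbp3*.

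For the 21 genes with a mean of at least 10 TPM, the median absolute log2 difference from sgControl was 0.12 for sgLmo2, beside 0.13 for all genes of that level. It was 0.17 for sgZbtb1 (0.19 for all genes), 0.14 for sgCbfa2t2 (0.15) and 0.19 for sgCbfa2t3 (0.15). Among these genes the difference of *Sp100* in sgZbtb1 was the largest in the 4 comparisons, which rests on sgZbtb1 replicate 3: without it the difference was -0.48, smaller than that of *Ddx58* in sgCbfa2t3 (-0.80). The median standard error of the 32 genes was 0.25 on the log2 scale. Libraries of 1 condition spread beyond counting error for *Tap2*, with a chi-square of 24.6 per degree of freedom within conditions, and *B2m* at 12.6, whereas that of *Adar* was 0.93. This measure grows with the number of reads and does not rank the genes by their variation.

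ChIP-seq peaks of Zbtb1 and Cbfa2t3, from unedited LPs, were used to ask where these factors lie near the list. The study deposited 5898 Zbtb1 and 6077 Cbfa2t3 peaks that were reproducible in 2 replicates, each assigned to its nearest gene. Among the 32 detected genes, 5 (15.6%) were assigned a Zbtb1 peak and 5 (15.6%) a Cbfa2t3 peak, beside 26.8% and 20.5% of all detected genes. The order for Cbfa2t3 depended on the peaks counted: within 10 kb of the start site it was 15.6% beside 12.6% of all detected genes, and with a score of at least 30 it was 12.5% beside 12.8%. For Zbtb1 the shares were 9.38% beside 21.8% and 6.25% beside 14.3%. Over all 40, 6 genes had a Zbtb1 peak (*Tap2*, *Usp18*, *Bst2*, *Zbp1*, *Psmb10* and *Rtp4*) and 6 a Cbfa2t3 peak (*Tap2*, *Bst2*, *Zbp1*, *Psmb8*, *Trim25* and *Rsad2*), of which 3 were shared, and 31 had neither.

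The strongest lay in *Tap2*, with scores of 290.1 for Zbtb1 (rank 79 of its list) and 167.4 for Cbfa2t3 (rank 182), in intron 5 of 11. The peaks, at chr17:34210592-34210962 and chr17:34210620-34210998 on mm10, shared 343 bases. *Bst2* had overlapping peaks in intron 2 of 4, at chr8:71535731-71536101 with a score of 35.3 and at chr8:71535715-71536093 with 67.4, sharing 363 bases. The peaks nearest to *Zbp1* did not overlap. *Tap2* was thus the gene with the highest peaks of both factors, but its mRNA did not pass in sgZbtb1 (-0.14, 95% interval -0.42 to 0.14) or sgCbfa2t3 (0.19, -0.08 to 0.47), and *Sp100* and *B2m* were the nearest gene of no peak. *H2-K1* and *H2-D1* had none either, whereas promoter peaks were listed for *Irf1*, with scores of 78.6 for Zbtb1 and 25.7 for Cbfa2t3.

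The centre of the Zbtb1 peak in *Tap2* (chr17:34210678-34210877) and the part of the one in *Bst2* that lies outside exons (chr8:71535937-71536016) are shown on the + strand, since both factors share them. Capitals mark 3 motifs, each searched on both strands, and overlapping matches run together. The Runx core was searched as TGTGGT. The Gata core was searched as AGATAA. The E-box was searched as CAGCTG, which reads the same on both strands.
Tap2 intron 5: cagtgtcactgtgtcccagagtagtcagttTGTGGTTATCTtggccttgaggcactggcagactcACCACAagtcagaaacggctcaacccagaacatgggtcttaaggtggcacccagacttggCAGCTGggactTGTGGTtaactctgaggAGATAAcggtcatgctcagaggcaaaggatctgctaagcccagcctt
Bst2 intron 2: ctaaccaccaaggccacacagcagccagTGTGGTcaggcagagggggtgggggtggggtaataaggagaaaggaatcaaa

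The *Tap2* site held 3 Runx cores, 2 Gata cores, 1 of which overlaps a Runx core, and 1 E-box, and the *Bst2* stretch held 1 Runx core. In the 200 bases at the centre of all peaks on assembled chromosomes other than 18, the Runx core was found in 41.2% of 5743 Zbtb1 and 43.5% of 5927 Cbfa2t3 peaks. The Gata core was found in 4.30% and 6.46%, and the E-box in 15.5% and 47.5%. The ISRE core was found in 1.51% and 2.50% of the peaks.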

How the data were processed

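Total RNA of sorted *Ebf1*-deficient LPs was made into QuantSeq 3′ mRNA libraries, and Zbtb1 and Cbfa2t3 were mapped by ChIP-seq. According to the labels and methods, the authors trimmed QuantSeq reads with fastp, aligned them with STAR and deposited values they call TPM. These deposited values are CPM (read counts scaled to a common total) without length correction, since 100% of them came out as whole reads (within 0.1 of a read) and every library has the same total. The strand used in counting was not given in the sources used here. The 1 row without a gene identifier held at most 5.86e-05% of a library's reads. Averages, SDs, p values and fold changes that the authors deposited beside the libraries were not used. For ChIP-seq, the authors aligned reads with Bowtie 1.1.1 to mm10, called peaks with HOMER, kept those reproducible in 2 replicates, and deposited a score for each peak, at least 15.

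The 40 genes and all other gene lists were chosen with earlier results of these data known. The replicates were biologically independent according to the methods. Genes with a mean of at least 1 TPM were fitted with limma 3.58.1 (R 4.3.3, trend) on log2(TPM + 1) over all 15 libraries, so that a fold change understates that of low genes, with Benjamini-Hochberg adjustment over 11554 genes and two-sided tests. The design had foreseen length-corrected TPM, and the test was kept. As alternatives, edgeR 4.0.16 and DESeq2 1.42.0 were run on the recovered reads, and the pseudocount, filter, scaling, replicate block, comparison group and libraries were varied. The fit was tested on simulated data.

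Full values were given for genes with an adjusted p under 0.05, for the 2 largest differences in each direction per comparison among genes with a mean of at least 10 TPM in either group, and for the 2 most abundant genes of each role. Members with an unadjusted p under 0.05 were named in addition, after their values were seen. RefSeq promoters (GRCm38.p6) were matched by symbol for 32 of the 40 genes, and sequence was read with pysam 0.24.0. Chromosome 18 was left out of the sequence counts in peaks. 1 item of the pathway list is not reported here.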

Additional observations from a re-analysis of the deposited data

How the results depend on the processing

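With 3 replicates per condition and a floor of 1.43 to 1.76 TPM, genes near the floor had the widest intervals. The number of listed genes past an adjusted p under 0.05 was small in every setting. For sgZbtb1 it was 1, and 0 without a filter, with edgeR and with DESeq2, 2 with a mean of at least 10 TPM, 2 with the 6 libraries alone (*Bst2* and *B2m*, without *Sp100*), 3 against the 9 libraries of the other sgRNAs and 0 to 2 when 1 library was left out. Over all genes the calls numbered 554, and 330 without a filter, 562 with edgeR and 509 with DESeq2. They numbered 540 with a mean of at least 10 TPM and 690 with the 6 libraries alone. Against the 9 libraries of the other sgRNAs they numbered 501, and with 1 library left out 306 to 459. For sgCbfa2t2 the number of listed genes was 0, and 1 against the 9 other libraries and 0 to 1 with 1 library left out. Over all genes it was 17, 9 and 2 to 26 in the same order. For sgCbfa2t3 the number of listed genes was 0, and 1 with a pseudocount of 0.1 (*Rtp4*) and 0 to 1 with 1 library left out. Over all genes it was 62, 58 and 26 to 59 in the same order. For sgLmo2 the number of listed genes was 0 throughout. Over all genes it was 14 with the replicate block, 201 against the 9 other libraries and 1 to 4 in the other settings. For the F test the number of listed genes was 2, and 0 without a filter, 1 with median-of-ratios size factors, edgeR or DESeq2, and 1 to 4 with 1 library left out. Over all genes it was 525, and 253 without a filter, 532 with median-of-ratios size factors, 538 with edgeR and 543 with DESeq2. With 1 library left out it was 338 to 583. The cause of these shifts was not tested.

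Replicate numbers are shared among conditions, but same-numbered libraries deviated together little (mean correlation 0.03, range -0.01 to 0.07, and -0.01 for different numbers). What else such libraries share was not tested. With the replicate block, 2 listed genes passed in sgZbtb1 (*B2m* and *Sp100*), 1 in sgCbfa2t3 (*Rtp4*), 0 in sgLmo2 and sgCbfa2t2, and 3 in the F test. Calls over all genes rose with the block, from 2 to 14 in sgLmo2, 554 to 709 in sgZbtb1 and 17 to 36 in sgCbfa2t2. They rose from 62 to 93 in sgCbfa2t3 and from 525 to 718 in the F test.

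The median log2 difference of the tested genes was 0.02 in sgLmo2, and 0.062 with a mean of at least 10 TPM, 0.077 against the 9 other libraries and -0.0071 to 0.0836 with 1 library left out. It ranged from -0.0674 to 0.0753 in sgZbtb1 and from -0.0944 to 0.0362 in sgCbfa2t2 with 1 library left out. In sgCbfa2t3 it was -0.11, and -0.14 without a filter, 0.058 with a mean of at least 10 TPM and -0.21 to -0.0613 with 1 library left out. Of 310 alternatives for 21 differences of single genes, 289 kept direction and side of the threshold, 17 lost the call, 1 gained it and 3 turned: *Ifih1* against the 9 other libraries was 0.51 in sgLmo2 and 0.16 in sgZbtb1, and *Parp14* in sgLmo2 was -0.017 without sgControl replicate 1 and 0.54 without sgControl replicate 2, its range with 1 library left out. A call could be lost only by *Sp100*, *H2-K1*, *H2-D1* and *Psmb7* in sgZbtb1, *Irf1* in sgCbfa2t3 and *Irf8* in sgLmo2. The other differences were not called in the main fit, so the 289 do not measure how well calls held. With peaks of a score of at least 30, the number of listed genes nearest to a Zbtb1 peak was 3 in place of 6.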
